A study of Drosophila melanogaster with 9 samples.

Results

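Clean injury of *Drosophila melanogaster* larvae was compared with no treatment, using 6 of the 9 arrays of the series. The members were all arrays that the sample labels assign to clean injury (3 arrays) or to larvae without stimulation (3 arrays). The study asked how infection and modest mechanical stimuli act on the humoral immune response of larvae. All groups were whole larvae of the third instar and of the *y w* strain (yw in the labels). Clean injury was pricking with a tungsten needle carrying no bacteria, and RNA was taken 4 h later. The untreated larvae received no stimulation. The remaining 3 arrays came from larvae pinched with forceps, also at 4 h, and are used here to test which changes differed between the treatments. RNA was hybridized to Affymetrix Drosophila Genome 2.0 arrays, on which a gene is read by at least 1 probe set, a group of short probes. Arrays of a group are labelled as biological replicates, without a statement of which larvae went into each. Untreated larvae kept for 4 h were not analysed here, so time, handling and a change of food cannot be told apart from the prick itself.

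Wounding of an insect breaches the cuticle and the epidermis beneath it. In flies, the fat body answers danger signals in the hemolymph by making secreted peptides. The Toll pathway, in which a protease cascade cleaves the ligand Spätzle and frees the NF-κB factors Dorsal and Dif, drives *Drs* and the bomanins. The IMD pathway, in which peptidoglycan recognition proteins lead to cleavage of the NF-κB factor Relish, drives diptericins, attacins and cecropins. The JAK-STAT pathway, through the receptor Domeless and the factor Stat92E, contributes to Turandot genes, which encode secreted stress peptides. The JNK pathway acts at the wound margin, and hemocytes take part in clotting and melanization.

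Each probe set has 1 value per array on a log2 scale, so a difference of 1 is a 2-fold change. The values measure levels in the RNA of the whole larva, in which fewer cells of a type and less RNA per cell cannot be told apart. Differences were tested with limma, fitted to all 9 arrays with a mean per group, and a call required an adjusted p below 0.05 after Benjamini-Hochberg correction over 18769 probe sets. Unless stated, adjusted p-values are from this fit and errors are SD over 3 arrays for means and SE for differences. Clean injury raised 980 (5.22%) of the 18769 probe sets and lowered 926 (4.93%), and the median difference over all of them was -0.04. The strong changes were mostly rises. At least 4-fold changes were found for 74 probe sets that rose and 34 that fell, and at least 10-fold changes for 27 that rose and 1 that fell. The call held in all 9 fits that each left out 1 array for 404 of the higher and 300 of the lower probe sets. The fit with the replicate number as a block called 1892 higher and 1610 lower, all 980 and 926 included.

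The arrays within a group correlated at r = 0.9885 to 0.9952 over all probe sets, and the array medians lay between 4.94 and 5.08. In the following, U1 to U3, C1 to C3 and P1 to P3 stand for replicates 1 to 3 of the untreated, clean injury and pinching groups. U1 stood apart in the controls for RNA integrity. The 3′ probe set of actin exceeded the 5′ probe set by 4.77 on the log2 scale on that array, against 3.02 and 2.61 on the other untreated arrays and 2.76 to 3.38 on the clean injury arrays. C1 and P1 also had the highest actin differences of their groups (3.38 and 3.37). The same difference for GAPDH was 2.11 on U1 and 1.39 on both U2 and U3. On C1 to C3 it was 1.73, 1.68 and 1.53, all above U2 and U3. Without U1, 502 probe sets were higher and 412 lower. Without U3 the counts were 482 and 358, without C1 they were 523 and 392, and without C2 they were 441 and 327. With replicate number 1 left out of all groups, 381 were higher and 220 lower. Of the 53 counts of 1 or more calls in the gene lists described next, 32 moved by more than 1.5 times without U1, 36 without U3, 27 without C1, 35 without C2 and 4 to 11 without any other array. The count without U1 is given beside each list that it moved that far, and where several arrays are named they were left out singly.

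**Figure D1:**
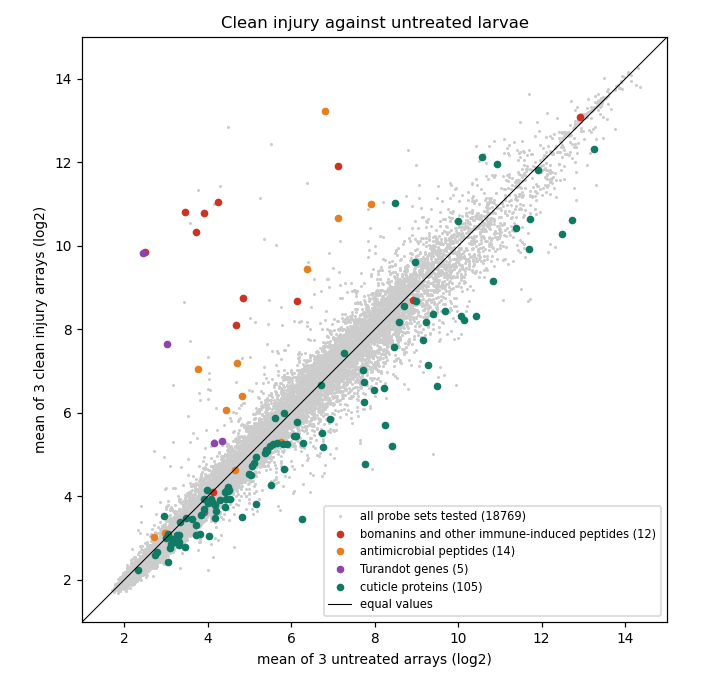
Mean log2 value of the 3 clean injury arrays (vertical axis) against the mean of the 3 untreated arrays (horizontal axis) for each of the 18769 probe sets (grey), with the measured genes of 4 lists in colour and a line at equal values. Most bomanins and several antimicrobial peptide and Turandot genes lie far above the line, and most cuticle protein genes lie on or below it.

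In the gene lists a gene stands for 1 probe set, the one with its highest average over all 9 arrays, which gave 11982 genes. Of these, 819 (6.84%) were higher and 765 (6.38%) lower after clean injury, with a median difference of 0.02. These shares are the background against which the counts of each list are to be read. Members of a list to which the annotation used here gives no probe set of their own are left out of its counts, and the others are called measured. The array can still hold probes for those left out, among the 4720 probe sets with no gene named or the 402 with several. The study reported rises of *Attacin* and *TotA* after pinching from its arrays.

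The bomanins, short secreted peptides that protect adult flies against infection, were the group with the highest median difference among the lists examined. Of 12 measured genes of the list of bomanins and other immune-induced peptides, 9 rose, 0 fell and 3 were not called, with a median log2 difference of 4.35. *BomS5* read 3.58, 3.43 and 3.39 on the untreated arrays and 11, 10.96 and 10.52 on the clean injury arrays. The groups were thus far apart, with little spread within each. The rise of *BomS5* was 7.36 ± 0.19 on the log2 scale, 164-fold (adjusted p = 9.54e-09). *BomT2* read 2.69, 2.51 and 2.30 untreated and 10.25, 10.13 and 9.20 after injury, a rise of 7.36 ± 0.33 (adjusted p = 7.93e-07). *BomS2* read 3.92, 4.00 and 3.82 untreated and 10.80, 11.04 and 10.55 after injury, a 118-fold rise (adjusted p = 2.89e-09). For each of these genes the untreated values lay low on the scale and can be background, so the folds are not exact. *BomS6* (log2 rise 6.81) and *BomBc2* (6.62) rose too. *Bbd*, encoding the secreted protein Bombardier, was already read above the array median in untreated larvae. *Bbd* went from 7.05, 7.28 and 7.06 to 12.02, 12.07 and 11.62, a rise of 4.78 ± 0.19. The smallest called rises of the list were those of *BomT3* (3.92), *BomS4* (3.44) and *BomBc3* (2.53). The 3 genes that were not called were *IM33* (difference 0.18), *BaraB* (-0.04) and *CG33493* (-0.22). The annotation used here gives 10 further genes of the list, *BomS1* and *BomS3* among them, no probe set of their own.

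Of 14 measured antimicrobial peptide genes, 7 rose, 0 fell and 7 were not called, with a median log2 difference of 1.6. *Drs*, the antifungal peptide drosomycin and the classical readout of Toll, read 5.96, 5.93 and 8.54 untreated and 13.27, 13.34 and 13.09 after injury. The 3 injured samples lay close together near the top of the scale, whereas U3 lay far above the other untreated arrays. The rise was 6.43 ± 0.55 (86.0-fold, adjusted p = 1.14e-04), and between 5.99 and 7.29 when any 1 array was left out. *Mtk*, encoding metchnikowin, read 6.22, 8.42 and 6.72 untreated and 10.84, 10.90 and 10.30 after injury. Here U2 was the high array, at 8.42 against 10.30 for the lowest injured array. *Mtk* rose by 3.56 ± 0.45, 11.8-fold (adjusted p = 0.00123). Genes known as targets of IMD rose as well. *DptB*, a diptericin, read 6.67, 6.43 and 6.04 untreated and 8.96, 10.36 and 9.03 after injury, with C2 the highest. The rise of *DptB* was 3.07 ± 0.35, 8.39-fold (adjusted p = 5.98e-04). *AttD*, an attacin, went from 3.16, 3.52 and 4.67 to 6.92, 7.32 and 6.92, and *CecB*, a cecropin, rose by 1.58 ± 0.23. *Listericin*, a peptide gene known to respond to PGRP-LE and JAK-STAT signalling, read 8.16, 8.15 and 7.42 untreated and 11.45, 11.24 and 10.34 after injury (8.58-fold). *Drsl2*, a drosomycin paralogue, rose by 2.49 ± 0.27. Probe sets of paralogues can share signal, so the share of each in such a family is uncertain. The uncalled genes were *Def*, encoding defensin (difference -0.28), *edin* (1.62, adjusted p = 0.114) and the paralogues *Drsl1*, *Drsl3*, *Drsl4*, *Drsl5* and *Drsl6*, between -0.45 and 0.29. With the replicate block *edin* was called too (adjusted p = 0.012). *AttA*, *AttB*, *AttC*, *CecA1*, *CecA2*, *CecC*, *DptA* and *Dro* have no probe set of their own in the annotation used here and are not counted.

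**Figure D2:**
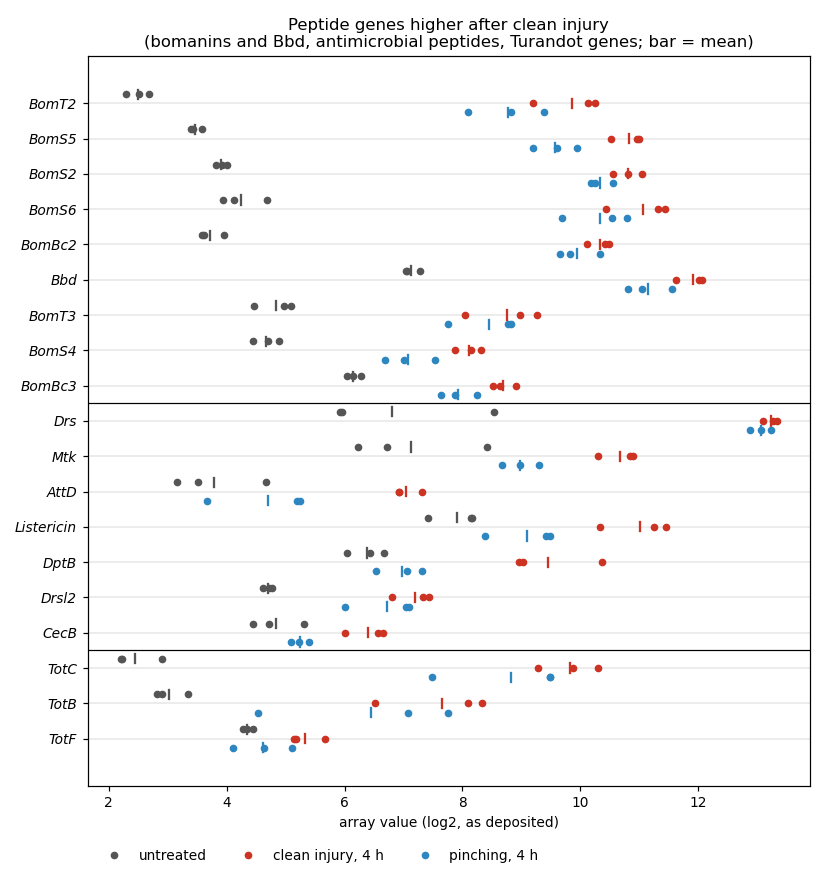
Log2 value on each array (dots) and group mean (bars) of the 9 bomanin list genes, 7 antimicrobial peptide genes and 3 Turandot genes that were called higher after clean injury. For all 19 genes the clean injury arrays (red) lie above the untreated arrays (grey) without overlap. The same held for 978 of the 980 probe sets called higher, so it is not particular to these genes. The pinching arrays are in blue.

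Turandot genes rose in part. Of 5 measured, 3 rose and 2 were not called, with a median log2 difference of 1.12. *TotA*, *TotM* and *TotX* have no probe set of their own in the annotation used here and are not counted. *TotC* read 2.91, 2.20 and 2.23 untreated and 9.88, 10.30 and 9.28 after injury. The rise was 7.38 ± 0.48 (adjusted p = 1.65e-05), from untreated values that can be background. *TotB* went from 3.35, 2.82 and 2.91 to 8.33, 8.09 and 6.52, with the lowest injured value in replicate 3. *TotF* rose by 0.97 ± 0.23, and its call held in 4 of the 9 fits without 1 array. *TotZ* (1.12, adjusted p = 0.115) and *TotE* (-0.28) were not called. Of the JAK-STAT list, 3 of 9 genes rose and 0 fell (median 0.39). These were the receptor *dome* (0.68 ± 0.13), the factor *Stat92E* (0.66 ± 0.17) and *Socs16D* (0.62 ± 0.12), of the family of signal suppressors. No JAK-STAT gene was called without C2 or with replicate number 1 left out of all groups, and 1 was called without U3 or C1. The ligand genes *upd1* and *upd2*, read at 2.93 and 3.46 in untreated larvae, differed by -0.21 and 0.11 and were not called. The ligand gene *upd3*, *Socs36E* and *hop* have no probe set of their own in the annotation used here and are not counted.

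Some genes of the Toll and IMD pathways themselves rose. Of 22 measured Toll pathway genes, 6 rose, 0 fell and 16 were not called (median 0.24). Without U1 or U3, 3 rose. *SPE*, the protease that cleaves pro-Spätzle, read 7.26, 7.23 and 7.49 untreated and 8.81, 8.86 and 8.99 after injury, a rise of 1.56 ± 0.16 (2.95-fold, adjusted p = 4.27e-04). *nec*, a serpin that restrains the cascade, rose by 1.15 ± 0.13, and *dl*, encoding Dorsal, by 0.67 ± 0.12. Another probe set of *dl*, read at 6.65 in untreated larvae against 7.08 for this one, differed by 0.07 and was not called. The receptor gene *Tl* (1.0 ± 0.22), its modulator *Pli* (1.08 ± 0.25) and the recognition gene *GNBP3* (0.60) also rose, with calls held in 6, 5 and 7 of the 9 fits without 1 array. The ligand gene *spz* (0.15), the inhibitor *cact* (0.06) and the adaptors *Myd88* (0.22) and *tub* (0.12) were not called. Of 23 measured IMD pathway genes, 8 rose and 0 fell (median 0.32). This count was 4 without U1, U3, C1 or C2, and 11 with the replicate block. *Rel*, encoding Relish, read 7.72, 8.06 and 7.94 untreated and 9.30, 9.46 and 9.23 after injury (rise 1.43 ± 0.13, adjusted p = 2.01e-04). *PGRP-SB1*, a peptidoglycan amidase, rose by 1.98 ± 0.36. The negative regulators *dnr1* (0.90) and *PGRP-LF* (0.77), the kinase *IKKbeta* (0.55) and *Tab2* (0.59) rose as well, whereas the negative regulator *pirk* (-0.31) and *imd* (0.22) were not called. The rises of *PGRP-SC2* (0.44) and *Diap2* (0.40) held in 2 of the 9 fits.

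Several genes for iron-binding proteins and serpins of the hemolymph rose. In the list of thioester proteins and iron handling, 4 of 9 genes rose and 0 fell (median 0.32). *Tsf1*, a secreted iron-binding transferrin, went from 9.82, 9.95 and 9.84 to 11.39, 11.15 and 11.15, a rise of 1.36 ± 0.13 (adjusted p = 2.01e-04). Another probe set of *Tsf1*, at 4.30, 7.79 and 8.05 untreated, differed by 2.20 and was not called (adjusted p = 0.163). A further probe set of *Tsf1*, read at 2.04 in untreated larvae, differed by -0.04 and was not called. The ferritin subunits *Fer1HCH* (0.69 ± 0.11) and *Fer2LCH* (0.78 ± 0.10) rose by like amounts, and *Mvl*, a metal transporter, by 0.65. Of 27 serpins, 4 rose and 0 fell, the largest rise being that of *Spn88Eb* (1.06 ± 0.12), while 16 of the differences were negative (median -0.08). *Spn28Dc* (0.77) and *Spn27A* (0.60), which restrain melanization, are counted in that list and in the list of melanization and clotting. In the latter, 4 of 14 genes rose and 1 fell (median 0.10). *yellow-f*, a dopachrome conversion enzyme, rose by 1.54 ± 0.27, and *Sp7*, a protease that activates prophenoloxidase, by 0.69. The prophenoloxidase gene *PPO1*, made by crystal cells, fell by 0.68 (10.71, 11.05 and 10.92 against 10.08, 10.02 and 10.53), a call lost without any untreated array, C1, C2 or P2. *PPO2* (-0.77), *Hml* (-0.38) and *Tig* (-0.39) were not called, and the replicate block called 5 genes of this list lower in place of 1.

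Of 22 genes of the JNK pathway and epidermal wound response, 4 rose and 2 fell (median 0.41), and 11 rose and 2 fell with the replicate block. *Ddc*, which encodes a decarboxylase for cuticle cross-linking and is switched on at wounds, rose by 0.98 ± 0.25. *msn*, a kinase upstream of JNK, rose by 0.75, *Mmp2*, a matrix protease, by 0.60, and *egr*, encoding the TNF ligand Eiger, by 0.51. These 4 calls held in 3 to 5 of the 9 fits, and none held without U1 or C2. The list had 1 rise without U3 or C1, 2 without C3, and 8 without P1. The JNK target *puc* (0.43) and the Fos gene *kay* (0.75, adjusted p = 0.0903) were not called, and *kay* was called with the block (adjusted p = 0.00103). The falls were those of *scaf* (-1.25 ± 0.25), a protease homologue, and *cher* (-0.54 ± 0.10), encoding filamin, of which 1 was called without U3 or C2. *Pvf2*, a growth factor of the PDGF/VEGF type, differed by 0.99 (adjusted p = 0.0565).

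Markers of hemocytes gave no common direction. Of 17 measured, 2 rose, 2 fell and 13 were not called, and the list mean was 6.89 to 7.05 on the untreated arrays and 7.04 to 7.10 on the clean injury arrays. *He*, encoding hemese, rose by 0.99 ± 0.16, and *atilla*, a lamellocyte marker, by 0.54, while *Pxn* (-0.64) and *PPO1* fell. Fat body markers, with list means of 12.82 to 13.10 untreated and 12.87 to 13.17 injured, had 0 of 4 genes called. Of 15 midgut markers 3 rose, among them *alphaTry* (1.13), and of 8 neuron markers 2 rose, *cac* (0.65) and *Appl* (0.59). Of 6 muscle markers 1 fell (*Act87E*, -0.62), of 4 epidermis and cuticle markers 1 fell (*serp*, -0.61), of 2 trachea markers *Gasp* rose (0.47), and 0 of 6 salivary gland and 0 of 7 germ line markers were called. With any 1 array left out, between 1 and 3 hemocyte markers rose and 0 to 3 fell, and between 1 and 4 midgut markers rose. Without U3, 0 markers of neurons, trachea, muscle or epidermis were called. The part of tissue composition in the other results was not tested.

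Several genes outside these lists were among the 15 largest rises. *CG33462*, annotated here without a name, read 3.49, 3.31 and 3.51 untreated and 8.21, 9.10 and 8.64 after injury (37.2-fold, adjusted p = 3.83e-06). *CG8160* went from 3.32, 3.23 and 2.94 to 5.92, 6.57 and 7.48 (11.3-fold). *CtsL3*, of the cathepsin L type of proteases, went from 3.85, 3.70 and 4.45 to 7.81, 8.35 and 5.84. For *CtsL3* replicate 3 of the injured group lay well below the others, and its call (rise 3.33 ± 0.86, adjusted p = 0.0356) held in 4 of the 9 fits. The 15 genes of this rank are the ones whose probe set rose at least 10-fold. The other 12 probe sets with such a rise have several genes (1) or no gene named here (11). The unnamed probe set 1622893_at had the largest rise of all tested, from 4.64, 4.63 and 4.22 to 13.10, 12.95 and 12.54, and 1633053_at rose by 7.57. *MtnD*, a metallothionein, and *Sid*, a stress-induced DNase, rose 7.24-fold and 9.48-fold and were chosen after their values were seen.

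**Figure D3:**
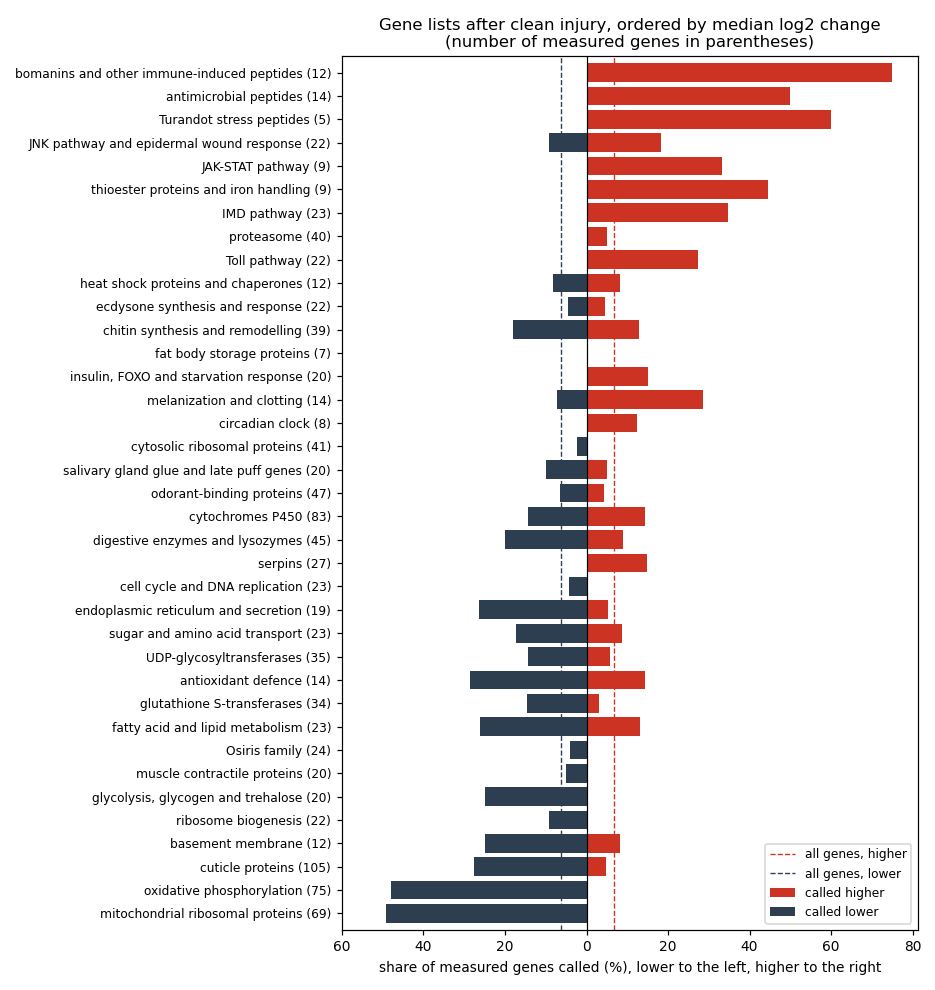
Share of the measured genes of each of the 37 lists called higher (red, to the right) or lower (dark, to the left) after clean injury, in percent, with lists ordered by median log2 difference. Dashed lines mark the shares over all 11982 genes, 6.84% higher and 6.38% lower. Peptide, immune and iron lists lie at the top, and mitochondrial, cuticle and basement membrane lists at the bottom.

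The largest falls lay outside the immune lists. *CG10560*, which belongs to a family of kinase-like genes, read 9.12, 9.39 and 9.69 untreated and 5.16, 5.13 and 4.76 after injury. It was the only gene to fall at least 10-fold (20.9-fold, -4.39 ± 0.20, adjusted p = 8.81e-07). *Smvt*, related to sodium-dependent vitamin transporters, went from 7.83, 7.82 and 8.15 to 4.36, 4.66 and 4.95 (9.70-fold lower). *CG3348* went from 9.92, 9.62 and 10.27 to 6.54, 6.74 and 6.74, a fall of 9.59-fold with the smallest spread of the injured samples in this set (SD 0.11). *CG4830* (-2.65 ± 0.25) and *CG31272* (-2.35 ± 0.29) fell as well. The remaining genes of the 15 largest falls were *TwdlP*, *CG13705*, *CG10953*, *Cpr78Cc*, *TwdlN*, *CG12607*, *CG40198*, *CG15515*, *CG1441* and *CG32603*, with falls between -3.21 and -2.33. In all of the 15 but *CG10560*, U2 was the lowest untreated array. The 15 were chosen among called probe sets whose groups did not overlap, which held for 924 of the 926 lower ones. The calls of *TwdlP*, *CG40198* and *CG32603* held in 5, 5 and 6 of the 9 fits, and the calls of the other 12 in all 9.

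**Figure D4:**
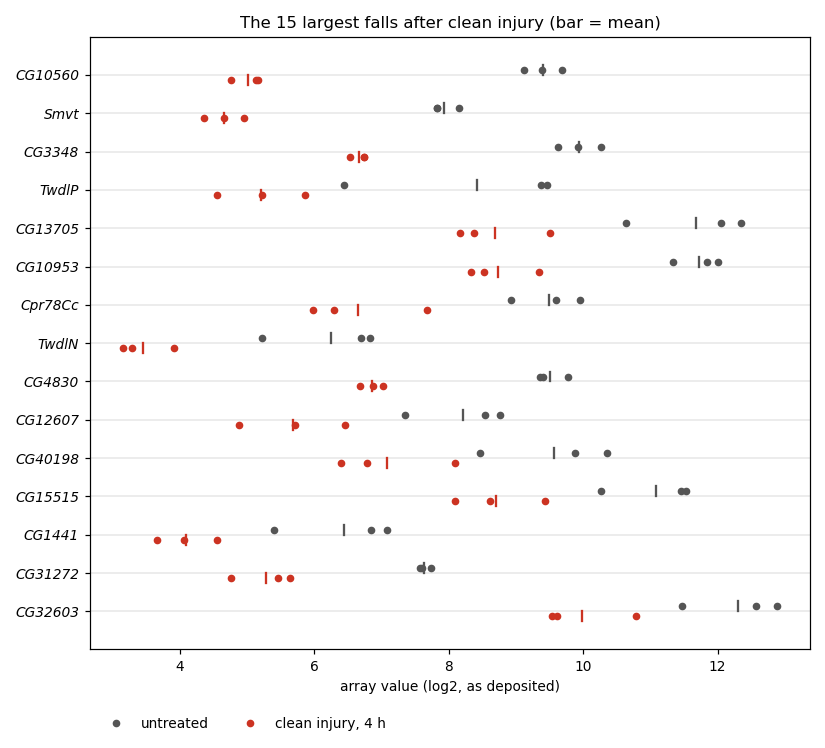
Log2 value on each untreated (grey) and clean injury (red) array, with group means as bars, for the 15 genes with the largest falls. That the injured samples lie below the untreated ones was a condition for the choice of the 15. For *TwdlP* the untreated arrays spread from 6.44 to 9.46.

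Cuticle protein genes, which encode the structural proteins of the exoskeleton, included many falls. Of 105 measured, 5 rose, 29 fell and 71 were not called, and 91 of the 105 differences were negative (median -0.41). With the replicate block 49 fell. *Cpr78Cc* read 9.59, 8.93 and 9.95 untreated and 5.98, 6.29 and 7.68 after injury (-2.84 ± 0.45, adjusted p = 0.00396). *Cpr65Aw* went from 10.17, 10.73 and 10.40 to 8.53, 8.29 and 8.15 (-2.11 ± 0.18, adjusted p = 9.62e-05), and *Lcp65Aa* from 10.16, 9.80 and 10.20 to 8.23, 8.11 and 8.62. The Tweedle genes *TwdlP* (-3.21), *TwdlN* (-2.80), *TwdlX* (-1.63), *TwdlL* (-1.35) and *Twdlbeta* (-1.25) fell too. *Cpr47Eb* went the other way, from 8.46, 8.42 and 8.57 to 10.90, 11.17 and 11.01, a rise of 2.55 ± 0.16 (5.84-fold, adjusted p = 1.51e-05). *Cpr78E* (1.57), *Cpr49Ac* (1.05), *Pcp* (0.65) and *Cpr67B* (0.59) also rose. The count of falls lay between 15 and 38 when any 1 array was left out, at 15 without C2, 16 without U3 or C1, and 18 without U1. It was 8 with replicate number 1 left out of all groups. The 5 rises became 1 without U1, C1 or C2, 2 without U2 and 3 without U3. Of 24 measured Osiris genes, a family active in cuticle formation, 1 fell and 23 of the differences were negative (median -0.21), and the fall was not called without U1.

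Genes of chitin synthesis and remodelling moved in both directions. Of 39, 5 rose and 7 fell (median 0.17), and 4 fell without U1, U3 or C1. *Cht4*, a chitinase, went from 6.26, 5.94 and 7.03 to 9.62, 9.54 and 9.69, a rise of 3.21 ± 0.24 (9.24-fold, adjusted p = 3.9e-05). The chitinase-like growth factors *Idgf1* (1.26 ± 0.11) and *Idgf3* (0.94 ± 0.13) and the molting chitinase *Cht5* (1.04 ± 0.18) rose as well. By contrast, *Cht6* (-1.48 ± 0.19), the chitin deacetylase *Cda4* (-1.42 ± 0.22) and the chitin-binding genes *obst-E* (-1.06 ± 0.14), *obst-A* (-1.05), *Peritrophin-A* (-1.0 ± 0.14) and *obst-B* (-0.90) fell. Other probe sets of *Cht6*, read at lower levels, were not called.

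The extracellular matrix beneath the epithelia showed falls. Of 12 basement membrane genes, 1 rose and 3 fell (median -0.38), and 7 fell with the replicate block. The collagen IV genes *Col4a1* (11.17, 10.37 and 10.80 against 9.60, 9.29 and 10.06) and *vkg* (10.57, 9.91 and 10.39 against 8.83, 8.81 and 9.49) fell by 1.13 and 1.24. *Ndg*, encoding nidogen, fell by 1.17, and *Mp*, encoding multiplexin, rose by 1.03. Another probe set of *Mp*, read at 4.30 in untreated larvae against 6.95 for this one, differed by 0.27 and was not called. None of the falls was called without C2 or with replicate number 1 left out. The falls were 1 without U1 or U3, and 5 without U2.

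Mitochondrial genes fell slightly but in large numbers. Of 69 measured mitochondrial ribosomal protein genes, 34 fell and 0 rose, and all 69 differences were negative (median -0.59). The mean over the list was 7.98, 7.57 and 8.10 on the untreated arrays and 7.23, 7.20 and 7.33 on the clean injury arrays. *mRpL20* read 8.02, 7.59 and 8.13 untreated and 6.88, 6.90 and 6.74 after injury, a fall of 1.07 ± 0.16 in log2 terms (adjusted p = 0.00248). *mRpL14* (-1.03) and *mRpS35* (-1.01) were similar. Of 75 genes of oxidative phosphorylation, 36 fell and 0 rose (median -0.57), with list means of 9.64, 9.46 and 9.59 untreated and 9.20, 9.02 and 9.22 injured. *ND-13B*, a subunit of complex I, fell by 0.86 ± 0.15, and *UQCR-6.4*, of complex III, by 0.85 ± 0.15. The calls depended on single arrays. The count of mitochondrial ribosomal falls lay between 7 and 46 when any 1 array was left out. It was 7 without U1 or U3, 13 without C1 and 8 without C2. The count of oxidative phosphorylation lay between 3 and 45. It was 5 without U1, 6 without U3, 7 without C1 and 3 without C2. With the replicate block the counts were 52 and 54. With replicate number 1 left out of all groups, 1 and 0 were called, while the medians were -0.56 and -0.51 and all 69 mitochondrial ribosomal differences stayed negative. The part of the RNA integrity difference in these counts was not tested. Cytosolic ribosomal protein genes did not share the fall, with 0 of 41 higher, 1 lower (0 without U1) and a median of 0.07. *RpL32*, used as the reference gene in the qPCR of the study, read 13.26, 13.24 and 13.25 untreated and 13.34, 13.32 and 13.35 after injury (difference 0.08 ± 0.09, adjusted p = 0.597). Of 40 proteasome genes, 2 rose, *Rpn5* (0.49) and *Rpn13* (0.49), and 39 of the differences were positive (median 0.28). The list mean was 7.94, 8.05 and 8.05 on the untreated arrays and 8.48, 8.33 and 8.06 on the clean injury arrays. With replicate number 1 left out of all groups, 32 of the proteasome differences were positive and 8 negative (median 0.16). With the replicate block or without C3, 9 proteasome genes rose, and 0 rose without U1, U3, C1 or C2.

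**Figure D5:**
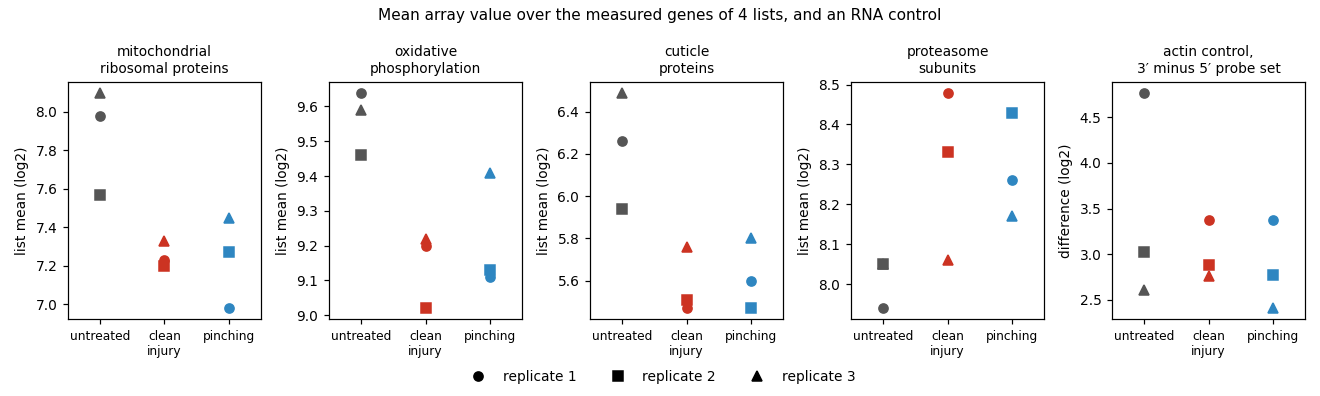
Mean log2 value over the measured genes of 4 lists on each of the 9 arrays, and, at the right, the log2 difference between the 3′ and 5′ probe sets of the actin control, with replicate numbers as symbols. The injured samples lie below the untreated ones for mitochondrial ribosomal, oxidative phosphorylation and cuticle genes, and untreated replicate 1 has the highest actin difference (4.77).

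Metabolic genes of lipid and sugar use fell in part. Of 23 genes of fatty acid and lipid metabolism, 3 rose and 6 fell (median -0.18), and 3 fell without U1, U3, C1 or C2. *ACC*, encoding acetyl-CoA carboxylase, the first committed step of fatty acid synthesis, went from 10.43, 9.57 and 9.96 to 7.63, 7.39 and 8.35, a fall of 4.58-fold (adjusted p = 0.00185). *FASN1*, fatty acid synthase, went from 12.73, 12.69 and 12.90 to 11.19, 11.25 and 11.74 (2.60-fold lower). *mdy*, a diacylglycerol acyltransferase for triglyceride storage, fell by 1.06 ± 0.19, and the lipid transfer particle gene *Apoltp* by 1.37. The lipase *Lip3* rose from 3.51, 3.48 and 5.0 to 6.30, 6.17 and 6.55 (5.07-fold), and *whd*, carnitine palmitoyltransferase of fatty acid oxidation, rose by 0.96 ± 0.15. Of 20 genes of glycolysis, glycogen and trehalose, 5 fell and 0 rose (median -0.29), including *Gpdh1* (-1.63 ± 0.24) and *Pfk* (-1.03 ± 0.17). This count was 3 without U1, U2 or P2, and 2 without U3, C1 or C2. In the list of insulin, FOXO and starvation response, 3 of 20 rose and 0 fell (median 0.13). These were the glucosidase gene *tobi* (2.12 ± 0.31), the insulin receptor *InR* (0.97 ± 0.20) and *chico* (0.51), while *foxo* (0.17), *bmm* (0.05) and *Pepck1* (0.33) were not called. Without U3 or C2, 1 gene of that list rose. Of 45 digestive enzymes and lysozymes, 4 rose and 9 fell (median -0.07), the largest falls being the alpha-mannosidase *LManV* (-1.52 ± 0.17) and the trypsin *lambdaTry* (-1.48 ± 0.26), and 2 rose without U1, U3 or C2. Of 23 genes of sugar and amino acid transport 2 rose and 4 fell (median -0.12), *Smvt* among the falls, and 1 rose without U1, U3 or C2. None of 7 fat body storage protein genes was called (median 0.14).

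Detoxification genes were split. Of 83 cytochromes P450, 12 rose and 12 fell (median -0.04), and 19 and 20 with the replicate block. The falls were 6 without U1, 7 without U3 or C2, and 5 without C1, and 3 with replicate number 1 left out of all groups. *Cyp309a2* rose from 3.94, 3.84 and 3.62 to 6.81, 6.98 and 5.69 (6.48-fold), *Cyp28d1* by 2.05 ± 0.22, and *Cyp12d1-d* and *Cyp6g1*, both known in insecticide resistance, by 1.44 and 1.40. *Cyp4s3* (-1.51), *Cyp4d14* (-1.50) and *Cyp6a8* (-1.45) fell most. Of 34 glutathione S-transferases 1 rose, *GstT4* (1.46 ± 0.15), and 5 fell (median -0.18), *GstD7* most (-2.19 ± 0.57, a call held in 4 of the 9 fits). Without U1, U3, C1 or P2 the falls were 2, without C2 there was 1, and with replicate number 1 left out there were 0. Of 35 UDP-glycosyltransferases 2 rose and 5 fell (median -0.14), *Ugt35B1* (-2.25 ± 0.29) and *Ugt37C1* (-2.10) most. Without U1, U3, C1 or C2, 0 rose and 3 fell. Of 14 antioxidant genes 2 rose, *cnc* (0.64) and *Sod3* (0.51), and 4 fell (median -0.16), *Prx3* most (-0.92). Both rises were lost without U1, U3, C1 or C2, and 2 fell without U3 or C2. Of 19 genes of the endoplasmic reticulum and secretion 1 rose and 5 fell (median -0.10). The falls included the 3 subunits of the protein-conducting channel, *Sec61alpha* (-0.84 ± 0.13), *Sec61beta* (-0.77) and *Sec61gamma* (-0.89 ± 0.14), and the rise was that of *Herp* (0.62), lost without U1, U3 or any clean injury array. Without C2, 3 fell. Of 24 heat shock and chaperone genes, 12 were measured. The others, the Hsp70 genes, *Hsp22*, *Hsp23* and *Hsp83* among them, have no probe set of their own here. Of the 12 measured, *DnaJ-1* rose (0.78) and *Hsp60A* fell (-0.73), and 10 were not called (median 0.22). Neither was called without U1 or C2, nor *Hsp60A* without U3 or C3.

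Developmental lists had few calls. Of 22 ecdysone genes, *MsrA*, which ecdysone is known to induce, rose by 1.16 ± 0.17 and *Hr38* differed by -1.35 ± 0.37 (list median 0.17). The groups overlapped for *Hr38*, whose call (adjusted p = 0.0456) held in 3 of the 9 fits, with an adjusted p of up to 0.165. Of 20 glue and late puff genes 1 rose and 2 fell (median 0.01), of 23 cell cycle genes 1 fell (-0.09), and of 22 ribosome biogenesis genes 2 fell (-0.32). All of these were lost without U1 or C1, and the ribosome biogenesis falls were 5 without U2. Of 8 clock genes *vri* rose (1.25 ± 0.33), with a call held in 5 of the 9 fits and lost without U1. Of 47 odorant-binding proteins 2 rose and 3 fell (median -0.02), *Obp83g* most (-1.73 ± 0.27), and of 20 muscle contractile genes 1 fell (median -0.26), against 7 with the replicate block, 3 without U1 and 0 without U3. Neither rise of an odorant-binding protein was called without U1, U3, C1 or C2.

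Which of these changes differed from those after pinching was tested directly. Of 18769 probe sets, 1 (0.00533%) was called between the treatments. At an unadjusted p under 0.05, 205 were higher and 107 lower after clean injury. Together these are a smaller share of the probe sets than 0.05. Deviations of clean injury and pinching arrays with the same number correlated (r = 0.346, 0.533 and 0.548). The main fit does not take this into account, so the share cannot show that the treatments act alike. The called gene, *CG16772*, read 5.0, 5.07 and 4.98 untreated, 7.40, 7.08 and 7.52 after clean injury, and 5.29, 5.63 and 5.74 after pinching. The clean injury arrays lay clearly above all others. The difference from pinching was 1.78 ± 0.15 (adjusted p = 0.00437), and the rise over untreated larvae was 2.32 ± 0.15 (4.99-fold). This call was lost with only the 6 arrays of clean injury and pinching in the fit, and with replicate number 1 left out. With the replicate block 8 probe sets were called higher after clean injury than after pinching and 0 lower. These were *CG16772*, *Listericin*, *DptB*, *BomS5*, *CG4757*, *CG14275*, *CG15282* and the unnamed 1641419_at, of which the last 4 were chosen after their values were seen. *DptB* read 6.54, 7.31 and 7.06 after pinching, all below the clean injury arrays, and the difference between treatments was 2.48 ± 0.35 (adjusted p = 0.133, and 0.0124 with the block). *Listericin* read 9.49, 9.41 and 8.39 after pinching (difference 1.91 ± 0.35, adjusted p = 0.422, and 1.66e-04 with the block). The treatments did not overlap in either gene. *AttD* (difference 2.35 ± 0.45, adjusted p = 0.422, and 0.178 with the block), *Mtk* (1.70 ± 0.45, adjusted p = 1.0, and 0.172 with the block) and *CecB* (1.17 ± 0.23, adjusted p = 0.501, and 0.252 with the block) were not called in either fit. *Drs* differed by 0.17 ± 0.55 between the treatments, *TotC* by 1.0 ± 0.48, *CG10560* by 0.71 ± 0.20 and *Cpr78Cc* by -0.51 ± 0.45, with adjusted p-values of 1.0. These values do not show that the treatments act alike on those genes, since the errors leave room for differences of the sizes given.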

How the data were processed

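The 9 Affymetrix arrays (3 per group) carried labelled cRNA of whole *y w* larvae. For every probe set and array the authors deposited a single log2 value, made in R. How background was corrected and how probes were normalized and summarized is not given in the sources used, and nothing was added to the deposited values. Arrays have no read depth, and 3 arrays per group limit the precision.

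After 183 control probe sets of 18952 were left out, 18769 were tested with limma 3.58.1 in R 4.3.3 (lmFit, contrasts.fit, eBayes). All 9 arrays entered a single fit with a mean per group, with two-sided tests, Benjamini-Hochberg adjustment over all probe sets and a threshold of 0.05. P-values set the difference between group means against the spread of arrays within groups. That spread is pooled over the 9 arrays and moderated across probe sets. Tables and plots used Python 3.11.15, pandas 2.3.3 and matplotlib 3.10.9. On simulated arrays of 18769 probe sets made for the comparison of clean injury with untreated larvae, the fit found 32% of simulated 1.5-fold changes. It found 82% of 2-fold changes and every 4-fold change, and 11 of its 168 calls were false. The simulated arrays had independent noise and 50 changed probe sets per fold size. Real arrays of the same number shared deviations and far more probe sets were called, so these rates need not hold for them.

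Names came from the platform's annotation, checked by gene identifier against RefSeq (Release 6 plus ISO1 MT). It gives 1 gene to 13647 probe sets, several to 402 and none to 4720. The lists hold only probe sets with 1 gene. Other probe sets of *Socs16D*, *whd*, *cnc* and *Hr38*, read at lower levels, were not called. The members and the 37 gene lists were chosen with earlier results of these data known. Genes were named by a rule: for single-gene probe sets with a call and no overlap of the groups, the 15 largest rises and the 15 largest falls, the members of a list with the 4 smallest p-values, the qPCR genes, and probe sets called between the treatments. Further list members were named after their values were seen.

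Groups share replicate numbers. Deviations from the group means correlated between arrays of the same number in all 9 pairs (r = 0.189 to 0.548; 0.189 to 0.288 for clean injury and untreated), and at -0.463 to 0.16 for other numbers. The numbers were therefore taken to pair the samples, an inference from the values that the labels do not state. The fit without the block stayed the main one.

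Alternatives were quantile normalization, centring on array medians, leaving out the dimmest 40% of probe sets or those that can cross-hybridize, only the 6 arrays compared, the replicate block, a robust prior with an intensity trend, the methods' t-test, a 2-fold minimum, averaging the probe sets of a gene, and leaving out each array. Leaving out replicate number 1 of every group was added after the control probe sets were seen.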

Additional observations from a re-analysis of the deposited data

How the results depend on the processing

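The counts of probe sets higher and lower after clean injury (980 and 926) stayed within 1.5 times under quantile normalization (963 and 1214), median centring (915 and 1132), both probe set filters, a fit of only the 6 arrays compared (1070 and 1049) and a trend with a robust prior. With the replicate block they were 1892 and 1610. Under the methods' t-test they were 1969 and 2299 at an unadjusted p under 0.05, and 85 and 36 after Benjamini-Hochberg adjustment. A 2-fold minimum left 276 and 288. With replicate number 1 left out of every group they were 381 and 220, and with any 1 array left out they ranged from 441 to 1266 and from 327 to 1225, where fewer arrays were fitted. Lower calls made up more of all calls under quantile normalization and median centring, which moved the median difference of all probe sets from -0.04 to 0.0 and -0.08. Between clean injury and pinching, the count of 1 higher and 0 lower became 8 higher with the replicate block, and 0 higher with only the 6 arrays compared, with the methods' t-test after adjustment, and with replicate number 1 left out. It ranged from 1 to 3 higher with any 1 array left out. The methods' t-test at an unadjusted p under 0.05 gave 212 higher and 184 lower between the treatments, together also a smaller share of the probe sets than 0.05. Like the main fit, that test does not use the replicate numbers. Of 3022 values of named genes under alternatives, 2579 kept direction and call, 384 kept direction but lost the call, 58 gained it and 1 reversed: *Yp3*, not called at 0.30, was at -0.02 without untreated replicate 1 and ranged up to 0.49 with another array left out. Of the 74 list counts, 27 moved by more than 1.5 times with the replicate block, 43 with replicate number 1 left out, 10 with quantile normalization and 7 with median centring. The cause of these shifts was not tested. No detection calls were used here, so dim values may hold no signal above background.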
